A study of Hordeum vulgare subsp. vulgare with 8 samples.

Results

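Alternative 3' splicing (A3S) joins the same upstream exon to different acceptor sites, so that the start of the downstream exon moves. The events described here were the A3S events whose acceptors lay 6 to 30 nt apart at a distance that was a multiple of 3, so that the alternative form gains or loses between 2 and 10 codons' worth of bases without a shift of frame. The distance was the difference in length between the annotated exon and its alternative form, and it equalled the shift of the acceptor coordinate in every event. Of 5473 distinct A3S events in 8 libraries, 1110 met this rule, in 984 of 3574 genes, and they made up 2156 of 10712 listings. The comparison set was the 1536 frame-shifting A3S events 7 to 29 nt apart from the same libraries.

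The RNA was poly(A)-selected from barley embryos germinating in the dark at 21 °C. Each of 4 varieties (Bass, Harrington, Stirling, Baudin) gave 1 library after 24 h and 1 after 48 h. Spread could therefore be measured over varieties alone, and it includes their genetic differences. Varieties also share events, so their values in comparisons of the event sets are not independent. A test over 4 pairs cannot give an exact two-sided p-value under 0.125. The libraries listed from 1150 to 1712 A3S events. An event absent from a list was not called there, which is not a measured 0, and the lists hold the mean read depth of each exon but not the reads across each junction.

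An acceptor is the AG dinucleotide at the end of an intron, and it is read after the branch point and the polypyrimidine tract have been recognised. The second step of splicing often takes the first suitable AG downstream of the branch point, and a nearby AG may compete with it. An acceptor downstream of the annotated site shortens the exon and an acceptor upstream of it lengthens the exon. Where the exon is coding, a change by a multiple of 3 adds or removes amino acids and keeps the rest of the protein in frame, whereas other changes usually bring in a premature stop codon and may expose the transcript to nonsense-mediated decay. The lists do not say which exons are coding, so frame-keeping refers here to the distance alone.

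Shorter exons were the rule. Of the 1110 distinct frame-keeping events, 837 shortened the annotated exon and 273 lengthened it, which was 75.4% shortening (95% Wilson interval 72.8 to 77.8%, counting error only). In single libraries the shortening share at 24 h was 81.9% for Bass, 79.6% for Harrington, 76.9% for Stirling and 78.2% for Baudin, an order of varieties kept below. At 48 h it was 77.2%, 79.3%, 80.2% and 78.6%. The times overlapped, and the difference of -0.304 ± 3.32 percentage points (SD, n = 4 varieties, 48 h minus 24 h) was smaller than the spread (exact two-sided sign-flip permutation test over varieties, p = 0.875).

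Frame-shifting acceptors leaned less towards short exons. Over distinct events, 69.1% of the 1536 frame-shifting ones shortened the exon, against the 75.4% above. Among listings, in which recurrent events count in each library, the gap was wider. Averaged over the times of each variety, 79.0% of listed frame-keeping events shortened the exon against 64.3% of frame-shifting ones. The difference was 15.5, 15.4, 14 and 13.9 percentage points over the varieties and averaged 14.7 ± 0.863 (SD, n = 4; exact sign-flip permutation test, p = 0.125, adjusted p = 0.167 over 8 comparisons). No library of one set overlapped the other, since the frame-shifting share ran from 59.7 to 68.4%. Within bands of exon depth the frame-keeping share stayed between 78.3 and 79.7%, against 58.5 to 67.8% for frame-shifting events.

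**Figure D1:**
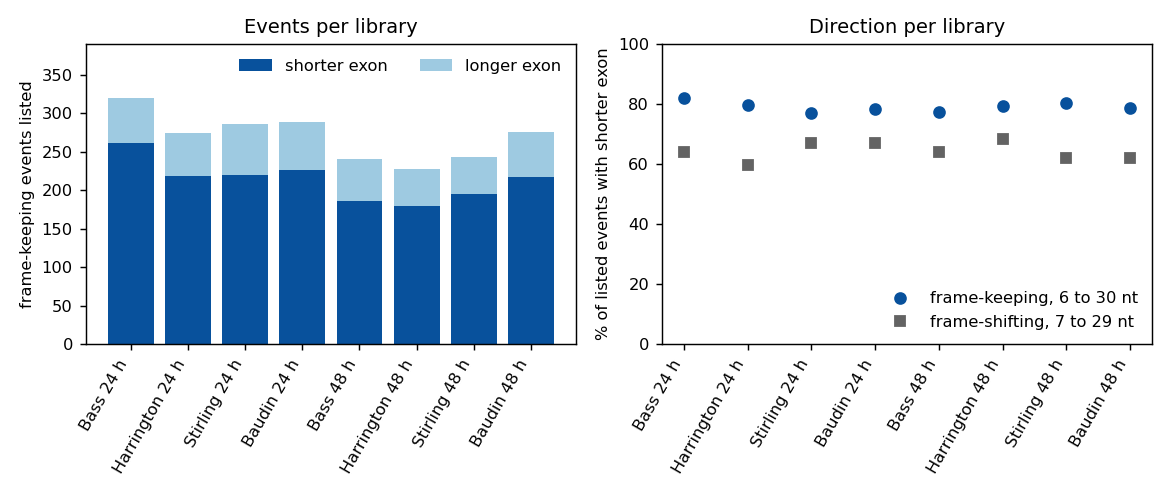
Left, number of frame-keeping A3S events 6 to 30 nt apart listed in each of 8 libraries, split into events that shorten (dark) and lengthen (light) the exon. Right, share of listed events (%) that shorten the exon in each library, for frame-keeping events (circles) and frame-shifting events 7 to 29 nt apart (squares); the circles lie between 76.9 and 81.9% and all squares lie below them.

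The lean towards shorter exons was strongest for the closest acceptors. At 6 nt, 244 of 267 distinct events shortened the exon (91.4%, Wilson interval 87.4 to 94.2%), and at 9 nt 185 of 212 did (87.3%). The share was 78.7% at 12 nt and lay between 53.8 and 66.1% at each distance from 15 to 30 nt. Frame-shifting events also leaned this way at short distances, with 87.3% at 7 nt and 75% at 8 nt. By bands, distinct events 6 and 9 nt apart were shortening in 89.6% against 82.3% for 7 and 8 nt. From 12 to 18 nt the share was 68.2% against 65.7% for the frame-shifting distances from 10 to 20 nt, and from 21 to 30 nt it was 60.4% against 60.1%. The Wilson intervals of the sets were apart in the first band and overlapped in the other two. With each frame-keeping distance set only against its frame-shifting neighbours 1 nt away, the difference in listings was 11.3 ± 0.342 percentage points (SD, n = 4 varieties; exact sign-flip permutation test, p = 0.125).

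Small steps were also the most common ones. The 6 and 9 nt distances held 479 of the 1110 events, 12 to 18 nt held 346 and 21 to 30 nt held 285. On average there were 123 distinct events at each frame-keeping distance and 96 at each frame-shifting distance. Multiples of 3 made up 36% of the distances from 6 to 30 nt and 42.0% of the A3S events there (1110 of 2646, Wilson interval 40.1 to 43.8%). Among alternative 5' splicing (A5S) events, in which the donor moves, they made up 39.9% (364 of 913, Wilson interval 36.7 to 43.1%). The 36% takes every distance as equally frequent, but A3S events fell from 267 at 6 nt to 62 at 30 nt. The window also begins at a multiple of 3, which by itself raises the frame-keeping share and average. At 5, 6 and 7 nt there were 280, 267 and 251 A3S events. Per library the share was 44.4% for A3S and 42.8% for A5S, a difference of 1.54 ± 0.757 points that was positive in 4 of 4 varieties (exact sign-flip permutation test, p = 0.125). It turned to -1.54 when only distances from 6 to 21 nt were kept and to -5.60 for exons 30 to 100 deep.

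**Figure D2:**
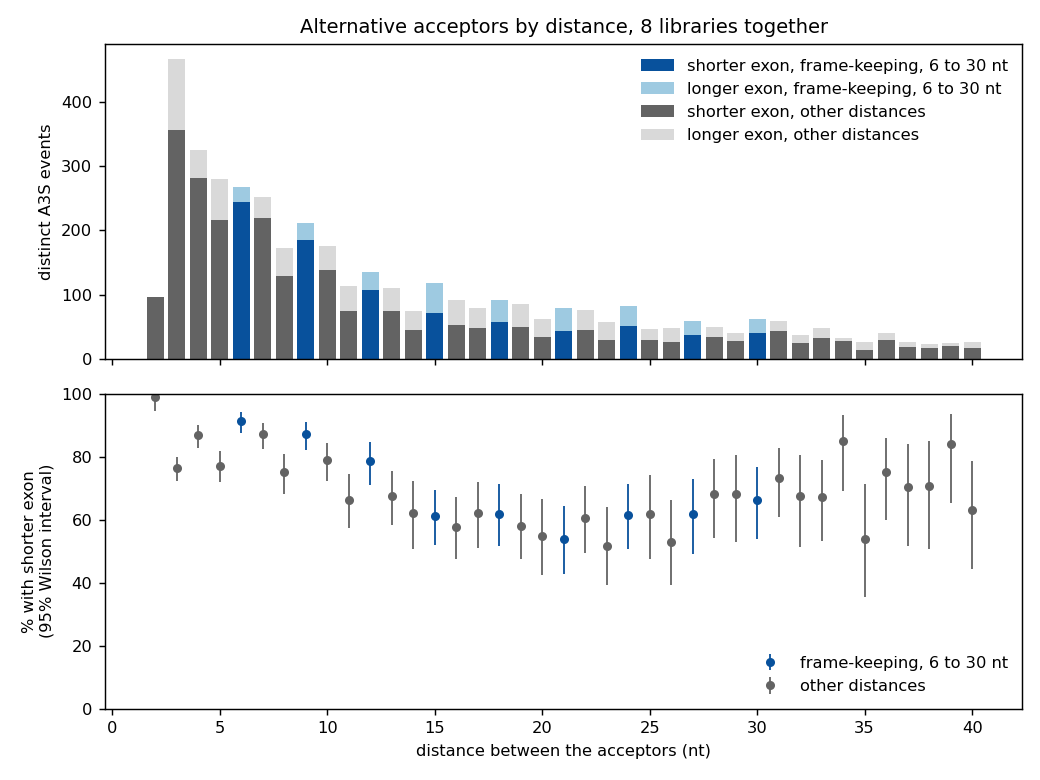
Distinct A3S events by the distance between the acceptors (nt), all 8 libraries together: above, number of events that shorten (dark) or lengthen (light) the exon; below, share that shortens the exon (%) with 95% Wilson intervals. Blue marks frame-keeping distances from 6 to 30 nt and grey all others; the blue points fall from 91.4% at 6 nt to 53.8% at 21 nt.

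Most frame-keeping events were seen 1 time. In 685 of 1110 cases (61.7%) the event was listed in 1 library, in 176 in 2, in 100 in 3, and in 149 (13.4%) in 4 or more. All 8 libraries listed 21 of them (1.89%). By variety, 714 events were listed in a single variety, 195 in 2, 99 in 3 and 102 in all 4. Of frame-shifting events, 66.0% were in 1 library and 10.7% in 4 or more. Per library, 68.4% of frame-keeping events were listed in at least 1 other library against 63.6% of frame-shifting events. This difference of 4.78 ± 0.993 percentage points was positive in 4 of 4 varieties (SD, n = 4; exact sign-flip permutation test, p = 0.125, adjusted p = 0.167). An event listed in several varieties enters the value of each, so the 4 values are not independent. Its size depended on the setting, at 2.19 with a window of 9 to 30 nt, 2.89 with genes in place of events and 10.9 for exons 30 to 100 deep.

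Recurrence and direction went together, and in opposite ways for the 2 sets. Among events listed in 1 library only, 73.6% of the frame-keeping and 72.4% of the frame-shifting ones shortened the exon, a difference of 1.24 ± 4.84 points that was positive in 2 of 4 varieties (SD, n = 4; exact sign-flip permutation test, p = 0.75). Among events in 2 or more libraries the shares were 81.5% and 59.8%, and the difference was 21.8 ± 1.70. Among those in 4 or more libraries they were 87.4% and 53.8%, and the difference was 33.6 ± 2.05. Both were positive in 4 of 4 varieties (exact sign-flip permutation test, p = 0.125 each). These recurrence classes were chosen after the data were seen, and an event in several libraries enters several varieties. The 21 events in all 8 libraries comprised 18 that shortened the exon and 3 that lengthened it.

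**Figure D3:**
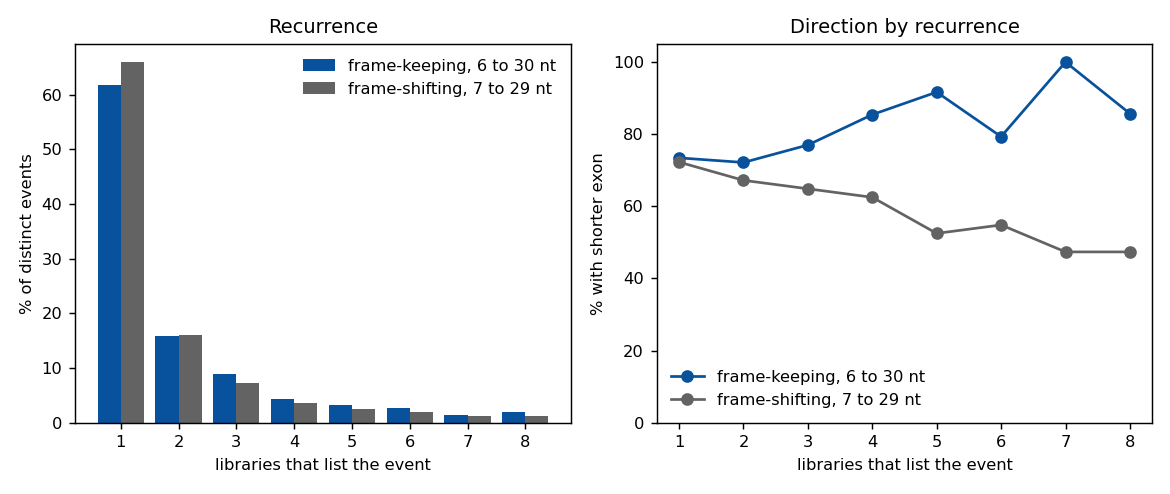
Left, share of distinct events (%) by the number of libraries that list them, for frame-keeping events 6 to 30 nt apart (blue) and frame-shifting events 7 to 29 nt apart (grey); 61.7% of the frame-keeping events are in 1 library. Right, share of distinct events in each class that shorten the exon (%); the sets start together at 1 library and part as recurrence grows, and the classes of 7 and 8 libraries hold only 15 and 21 frame-keeping events.

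The exons of frame-keeping events were on average covered more deeply. The median depth of the annotated exon, in reads per base, was 36.2 for frame-keeping and 28.5 for frame-shifting events, a difference of 7.64 ± 3.55 that was positive in 4 of 4 varieties (SD, n = 4; exact sign-flip permutation test, p = 0.125). In single libraries it was not always so, because in Harrington at 24 h the medians were 32.1 and 37.7. Exons 30 to 100 deep were listed elsewhere in 72.2% of frame-keeping and 62.0% of frame-shifting listings, whereas for exons 10 to 30 deep the shares were 65.5% and 65.4%. Over the 1110 events the depth and the number of libraries had a Spearman rho of 0.137, given as a description because events share libraries and genes. What part depth plays in recurrence was not tested.

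Fewer frame-keeping events were listed at 48 h than at 24 h. At 24 h Bass listed 320 frame-keeping events, Harrington 274, Stirling 286 and Baudin 289, and at 48 h they listed 241, 227, 243 and 276. Every variety had fewer at 48 h, by 79, 47, 43 and 13, although the values of the groups overlapped because Baudin at 48 h exceeded Harrington at 24 h. The means were 292 ± 19.6 and 247 ± 20.8 (SD, n = 4), and the change was -45.5 ± 27 (exact sign-flip permutation test, p = 0.125, adjusted p = 0.167). All A3S events were fewer too, and the frame-keeping share of the list was 20.02% ± 1.69 at 24 h and 20.4% ± 0.740 at 48 h. That difference of 0.403 ± 2.17 points was within the spread (n = 4; exact sign-flip permutation test, p = 0.75). The median exon depth of all A3S events was also lower at 48 h, at 28.6 against 32.9, and its part in the lower number was not tested.

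Of the events of a variety at 24 h, 70.2% were not listed in that variety at 48 h, against 75.7% of frame-shifting events. The difference was -3.86, -5.32, -7.18 and -5.34 percentage points over the varieties, and its mean was -5.43 ± 1.36 (SD, n = 4; exact sign-flip permutation test, p = 0.125). It was -3.001 ± 2.19 with a window of 9 to 30 nt (exact sign-flip permutation test, p = 0.25) and -3.18 ± 5.86 when loss was counted from 48 h to 24 h (p = 0.5 by the same exact test), so that the varieties no longer all had the same sign. A variety shared between 84 and 89 frame-keeping events between its times, which was 18.2 to 20.2% of the events in either list. Different varieties at the same time shared 72 to 108 (17.5 to 25%), and different varieties at different times 69 to 97 (15.5 to 20.3%). The 3 ranges overlapped.

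**Figure D4:**
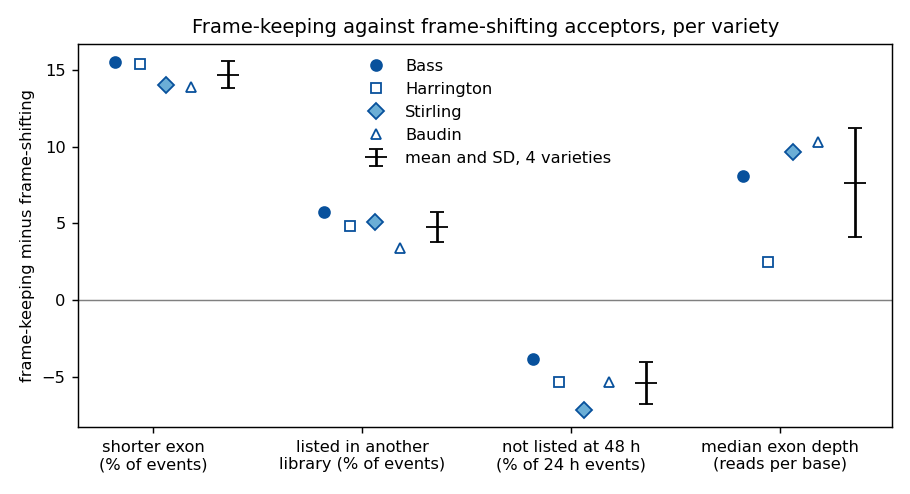
Frame-keeping minus frame-shifting A3S events in each of 4 varieties (symbols, mean of 24 h and 48 h for all but the third measure) with the mean and SD over the varieties (bars): percentage points for the first 3 measures and reads per base for the last. All 4 varieties lie on the same side of 0 for each measure, at 13.9 to 15.5 points for the share with a shorter exon. The varieties share events, so the symbols are not independent.

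The 21 events in all 8 libraries lay in 20 genes, and the study's descriptions covered some of these. MLOC_44001 (shortened by 6 nt) is related to LUC7, a protein of the U1 particle that recognises donor sites in yeast. MLOC_27537 (shortened by 27 nt) is described as a regulator of nonsense transcripts 3A, the UPF3 family of nonsense-mediated decay. MLOC_15455 (6 nt) is a double-stranded RNA-binding protein, MLOC_66841 (9 nt) a BHLH transcription factor and MLOC_59966 (9 nt) an RXT3-like protein, which in yeast belongs to a histone deacetylase complex. Other described genes were MLOC_77777 (6 nt), a late embryogenesis abundant protein of the kind that protects dry seeds, and MLOC_70918 (12 nt), a glutathione-regulated potassium-efflux protein. MLOC_12902 (27 nt) is C20orf11-like and MLOC_68705 (12 nt) holds a domain of unknown function. MLOC_54389, a peptidyl-prolyl cis-trans isomerase that helps proteins fold, had separate shortening events of 9 and 6 nt in different exons. The 3 lengthening events were in MLOC_69539 (6 nt), described as a universal stress protein, and in MLOC_11665 (12 nt) and MLOC_74457 (15 nt), for which no description was used here.

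For these events the depth of the stretch between the acceptors was computed from the depths of both forms and given as a percentage of the depth of the exon part that both share. A low value means that few reads covered the bases that only the longer form has. How the authors computed exon depth near a junction is not stated, so the value is a depth ratio and not the usage of an acceptor. Over all listings its median was 29.4% where the exon was shortened and 12.04% where it was lengthened, against 33.8% and 14.1% for frame-shifting events. For shortening events it was 22.4% at 6 to 11 nt, 34.9% at 12 to 20 nt and 44.3% at 21 to 30 nt, and for lengthening events 23.2%, 11.4% and 10.002%.

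The late embryogenesis abundant gene MLOC_77777 had a similar ratio at both times over a wide range of depths. Its exon (LG02, plus strand, 146330778 to 146331302 in the Morex assembly) is shortened by 6 nt to a start at 146330784. The exon depth was 454, 584, 1967 and 310 at 24 h and 4541, 5415, 3872 and 2098 at 48 h, not scaled for library size. The 48 h values were all above the 24 h values, but in whole embryos a larger share of the cells and more RNA per cell cannot be told apart. The stretch of 6 nt was at 15.7%, 17.5%, 16.1% and 19.1% of the shared depth at 24 h and at 17.5%, 15.9%, 18.1% and 16.8% at 48 h, and in this ratio the groups overlapped (limma adjusted p = 0.963).

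MLOC_11665 had the smallest adjusted p of the 21 events between the times. Its exon on LG10 (minus strand, 68828697 to 68829170) is lengthened by 12 nt to 68829182. The added stretch was at 86.2%, 107.7%, 73.0% and 73.6% of the shared depth at 24 h, and at 33.5%, 42.7%, 38.4% and 50.7% at 48 h. All 48 h values were below all 24 h values. The shared depth was low, from 15.4 to 26.6, and its ranges at the times overlapped. The log2 difference was -0.99 (SE 0.18, n = 4 varieties; limma adjusted p = 0.144 over 136 A3S events). Over the alternative settings the adjusted p ran from 0.0225, without the variety block, to 0.463, without Bass.

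MLOC_74457 went the other way. Its exon on LG02 (minus strand, 90909196 to 90909474) is lengthened by 15 nt to 90909489. The added stretch was at 8.22%, 6.36%, 5.94% and 5.76% at 24 h and at 13.4%, 8.39%, 10.5% and 10.7% at 48 h, in the order of varieties above. The groups did not overlap, but the gap was small (8.22 against 8.39). The log2 difference was 0.68 (SE 0.13, n = 4; limma adjusted p = 0.149, with a range from 0.119 to 0.470 over the alternatives).

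No event reached an adjusted p of 0.05 in this test. Of the 136 A3S events of any distance listed in all 8 libraries, limma called 0 (0%), with 15 at an unadjusted p under 0.05, of which 4 were frame-keeping. Groups without overlap were seen in 2 of the 21 frame-keeping events and in 10 of all 136. The median log2 difference was -0.04 for the 21 and -0.03 for all 136, and 7 of the 21 were higher at 48 h. Without Stirling 11 of the 21 were higher, and the matching count over the 136 is not given here. Without variety as a block, limma called 3 of the 136, of which MLOC_11665 was the frame-keeping one. In the larger set of 360 events listed in at least 6 libraries, 65 of them frame-keeping, it called 0.

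Several of the other events had narrow ranges over all 8 libraries, such as 65.2 to 74.7% in MLOC_12902, 64.1 to 79.1% in MLOC_51316, 9.50 to 16.0% in MLOC_44001 and 17.8 to 26.9% in MLOC_68705. Others ranged widely. In the universal stress protein gene MLOC_69539 the added 6 nt were at 28.7%, 69.97%, 78.1% and 71.8% of the shared depth at 24 h and at 26.997%, 68.0%, 28.7% and 19.95% at 48 h. Bass was low and Harrington high at both times, while Stirling and Baudin were high at 24 h and low at 48 h (log2 difference -0.71, SE 0.33, limma adjusted p = 0.509). The shared depth there was 5.39 to 21.6. In MLOC_27537, of the UPF3 family, the 27 nt were at 46.8%, 27.1%, 40.8% and 22.8% at 24 h and at 26.997%, 15.1%, 22.6% and 22.8% at 48 h, with overlap (log2 difference -0.59, SE 0.19, limma adjusted p = 0.327). The same exon of MLOC_27537 had a further event, shortened by 24 nt, in 7 libraries, so its 27 nt span another acceptor. The ratio there does not tell these forms apart. MLOC_44460 (shortened by 24 nt) had the highest values, from 83.3 to 127.3%, and MLOC_10939 (6 nt) among the lowest, from 3.48 to 9.04%. In MLOC_1313 (6 nt), with depths of 3.33 to 7.40, the value ran from 0 to 85.2%, with 2 computed values below 0 set to 0. The values also depend on how the annotated depth is averaged. With that depth taken over the full exon length, the log2 difference moved from -0.06 to 1.74 in MLOC_10939. In MLOC_15743 it moved from 0.15 to 1.30, and in MLOC_69539 from -0.71 to -1.40. In MLOC_11665 and MLOC_74457 it did not change.

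**Figure D5:**
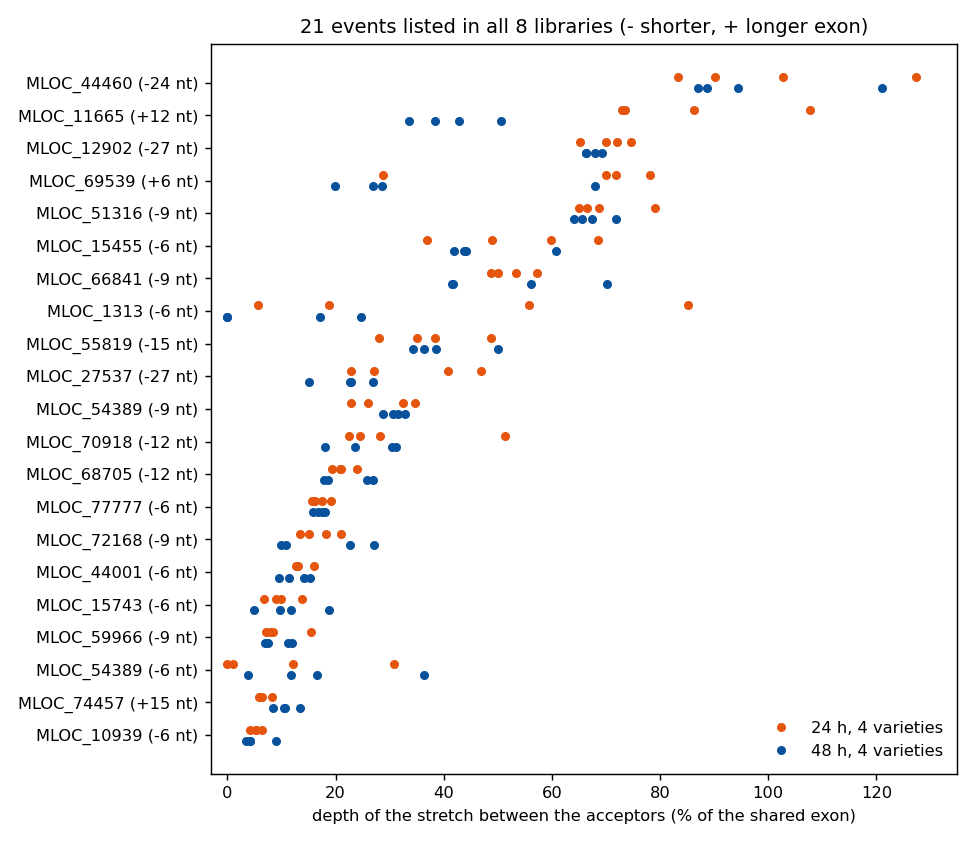
Depth of the stretch between the acceptors as a percentage of the depth of the shared exon (horizontal axis) for the 21 frame-keeping events listed in all 8 libraries, 1 point per variety at 24 h (orange) and 48 h (blue); the number beside each gene is the change in exon length. The times do not overlap in MLOC_11665 and MLOC_74457 and overlap in the other 19.

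Few events were listed in most varieties at one time and in none at the other. At 24 h alone, 16 events were listed in at least 3 varieties, in 15 genes (1.44% of frame-keeping events and 1.63% of frame-shifting ones), and at 48 h alone 11 were (0.991% and 0.716%). In all 4 varieties at 24 h and none at 48 h were the events of MLOC_37545, a midasin, which is needed for assembly of the large ribosomal subunit, of MLOC_54117, a tRNA-dihydrouridine synthase, of MLOC_68802, with a nuclear transport factor domain, and of MLOC_17823. Their exon depths were 89.8, 68.6, 55.2 and 68.1 for MLOC_37545 and 45.5, 21.1, 19.4 and 31.2 for MLOC_54117. For MLOC_68802 they were 673.5, 352, 376 and 359, while the same exon, listed at 48 h in another event, had depths of 90.6 to 108. So that exon was covered at 48 h, less deeply, and its 6 nt event was not called.

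At 48 h in all 4 varieties and at 24 h in none were MLOC_62072 (lengthened by 15 nt, depths 10.5 to 14.3), MLOC_70728 (lengthened by 24 nt, 53.8 to 72.7) and MLOC_7930 (shortened by 6 nt, 38.2 to 42.0). In 3 varieties they included MLOC_18667, a Pex14 peroxin of protein import into peroxisomes (9 nt), MLOC_7043, subunit 4 of succinate dehydrogenase in the respiratory chain (18 nt), MLOC_51052, a phosphatidylinositol-4-phosphate 5-kinase (lengthened by 27 nt), and MLOC_67076, a BURP domain protein (lengthened by 6 nt). At 24 h the 3-variety events included MLOC_11634, a glutathione S-transferase (9 nt), MLOC_13742, an aspartate aminotransferase (21 nt), MLOC_54788, an anamorsin-like protein of iron-sulphur cluster assembly (6 nt), and lengthening events of 18 and 21 nt in MLOC_71132, an isomerase of the methionine salvage pathway. The gene was listed with some other event at the other time for 10 of the 16 and 5 of the 11 events, and the same exon for 3 and 2. For the rest the depth at the other time is not known.

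Events of a single variety at both of its times numbered 29 (2.61%, against 2.15% of frame-shifting events), with 5 for Bass, 6 for Harrington, 8 for Stirling and 10 for Baudin. Their genes named here were chosen after the values were seen. In Baudin they included MLOC_54031, a lipoxygenase lengthened by 27 nt at depths of 774 and 1918, and MLOC_78250, the splicing factor RSE1, shortened by 30 nt at 106 and 131. In Harrington MLOC_51932, an auxin response factor, was lengthened by 12 nt at 23.5 and 25.8. In Stirling MLOC_70169, described like MLOC_7043 as subunit 4 of succinate dehydrogenase, was lengthened by 9 nt at 72.5 and 85.0. Whether reads were split between genes of the same description was not tested.

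The deepest recurrent events were far above the median of 32.4. MLOC_64594 (LG01, shortened by 9 nt) had a depth of 789 in Baudin at 24 h and of 10239, 10389, 4636 and 9967 at 48 h, and it was not listed in the other 3 varieties at 24 h. MLOC_67049 (LG02, shortened by 6 nt) had 2200 in Harrington and 2991 in Baudin at 24 h, and 4568 in Stirling and 2616 in Baudin at 48 h. Neither was described. Among lengthening events MLOC_67651, an elongation factor-like protein (24 nt), was between 1760 and 2377 in 6 libraries. MLOC_35016 (18 nt) had 560 and 260 in Stirling and Baudin at 24 h and 1223, 1896, 1558 and 1197 at 48 h. MLOC_60963, subunit 3 of succinate dehydrogenase (30 nt), was between 431 and 873 in 4 libraries.

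Of the 984 genes, 876 had 1 frame-keeping event, 93 had 2, 12 had 3 and 3 had 4. Those with 4 were MLOC_54389, MLOC_52073 and MLOC_21728. In MLOC_52073 an exon on LG01 could start 15 nt upstream or 9 nt downstream of its annotated acceptor at 38131223, and the 9 nt event was listed in 6 libraries against 2. In MLOC_21728 events of 15 and 27 nt shared an exon in 1 library each, while those of 30 and 6 nt in other exons were in 6 and 7 libraries. An exon with a further A3S event was found for 258 of the 1110 events (23.2%), and 40 also had an acceptor 3 nt away. In 211 genes (21.4%) there was also a frame-shifting event.

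The introns and exons were of similar length in both sets. The median intron before the acceptor was 128 nt, against 122 nt for frame-shifting events, and the median annotated exon was 151 nt against 147 nt. The annotated exon itself was a multiple of 3 long in 47.6% of frame-keeping and 50.3% of frame-shifting events. LG01 held 421 events (37.9%, against 39.2% of frame-shifting ones), LG10 182, LG02 160 and LG04 133.

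A description was at hand for 249 of the 984 genes, and words in it placed some in groups. The study's lists that gave them hold alternatively spliced transcripts common to several varieties and genes co-expressed with hormone genes. Described genes are thus a selected part: 74 of their 304 events were in 4 or more libraries, against 149 of all 1110. The words are crude, some genes fall in more than 1 group, and the counts are a description. Translation had 14 genes, 5.62% of the described genes, against 5.08% of the described genes with frame-shifting events. They held 19 events at a median depth of 687. Of these, 18 shortened the exon (94.7%, against 78.9% of all described frame-keeping events). Examples were MLOC_54834, a 60S ribosomal protein L18a (9 nt, 3 libraries), and MLOC_70079, an initiation factor subunit (6 nt, 3 libraries). Of the 19 events, 1 was in 4 or more libraries, that of the tRNA-dihydrouridine synthase MLOC_54117. The words missed MLOC_17719, a ribosomal protein S27 (9 nt, 6 libraries), and the elongation factor-like MLOC_67651, lengthened by 24 nt in 6 libraries. These counts are therefore of the words and not of all translation genes. RNA processing had 11 genes (4.42%, against 3.05% for frame-shifting events) with 12 events, 10 of them shortening. One was MLOC_4418, a Quaking-like KH domain protein (9 nt, depths 272, 163, 101 and 83.4 in Bass and Stirling at 24 h and at 48 h). Another was MLOC_66513, a pre-mRNA splicing factor (24 nt, depths 3.90 to 16.2 in 5 libraries). MLOC_59775, an RNA-binding protein, was instead lengthened by 24 nt in 4 libraries at 43.5 to 72.1.

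Words for transcription and chromatin placed 8 genes, 3.21% of the described genes, against 4.41% of the described genes with frame-shifting events. Of their 9 events, 6 lengthened the exon. MLOC_57764, a WRKY transcription factor, had a lengthening event of 30 nt and a shortening event of 12 nt. Signalling words placed 14 genes, 5.62% of the described genes, against 13.2% of the described genes with frame-shifting events. They included MLOC_81154, a pseudo-response regulator of the family that holds clock genes (6 nt, depths 4.62 to 18.6 in 5 libraries), MLOC_62219, a receptor-like protein kinase (6 nt, 31.8 to 96.2 in 5) and MLOC_55635, a regulatory subunit of a protein phosphatase (15 nt, 54.5 to 81.8 in 5).

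Words meant for carbon and energy metabolism placed 21 genes (8.43% of the described genes, against 9.15% for frame-shifting events). They held 32 events, 12 of them in 4 or more libraries, but the words were too broad for a count of that process. Of the 12, 6 were in other genes: MLOC_54389 with its 2 events, the topoisomerase subunit MLOC_14192, the tRNA-dihydrouridine synthase MLOC_54117, MLOC_64351, a katanin subunit that severs microtubules, and MLOC_75309, of unknown function. Among the rest, MLOC_7043 had a further event of 9 nt in 6 libraries (depths 285 to 1012), MLOC_43486, an isocitrate dehydrogenase of the citric acid cycle, an event of 12 nt in 7 libraries (16.8 to 30.6), and MLOC_63030 and MLOC_53996, subunits of the vacuolar proton pump, events of 9 and 6 nt in 5 libraries each. Ubiquitin words placed 9 genes (3.61%, against 4.07%), among them MLOC_36840, an E3 ubiquitin ligase (6 nt, 72.1 to 124 in 6 libraries). They also placed MLOC_75309, of unknown function, and missed MLOC_20377, a ubiquitin-like modifier-activating enzyme (30 nt, 4 libraries). Transport words placed 8 genes (3.21%, against 3.39%), among them MLOC_55025, a vacuolar protein-sorting protein (6 nt, 70.2 to 127.8 in 6 libraries).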

How the data were processed

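Reads were aligned by the authors with SOAP2 against the IBSC assembly of Morex, and junctions came from SOAPsplice, which needs a read segment longer than 8 nt on each side. The effect of this on the stretch depth was not tested. They deposited for each library lists of A3S and A5S events with the start, end, mean depth and covered share of 3 exons, and these values are other than counts and are not scaled for library size. How exon depth was computed is not given in the sources used here. Linkage groups and coordinates are those of the lists. Of the frame-keeping events, 6 carry an exon tagged "noref", which the deposited column note does not explain.

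An event was the gene model with the coordinates of all 3 exons. Shares, recurrence and depth were computed with Python 3.11.15, pandas 2.3.3, numpy 2.4.6 and scipy 1.17.1, and plots with matplotlib 3.10.9. Times and sets were compared with exact sign-flip permutation tests over the 4 varieties (two-sided), with Benjamini-Hochberg adjustment over 8 comparisons. Stretch depth relative to shared depth, with 0.5 added to each, was tested on the log2 scale by limma 3.58.1 (R 4.3.3), variety being a block. Of 1088 values, 68 were below 0 and set to 0 (3 of 168 for frame-keeping events). On 1000 simulated events, the comparison of stretch depth between the times recovered 95% of 200 changes of 2 on the log2 scale. Of its calls, 5.94% were false. The spread used in the simulation is not given here, and smaller changes were not simulated. The log2 differences of the frame-keeping events in all 8 libraries ran from -1.10 (MLOC_1313) to 1.21 (MLOC_54389, 6 nt). The 95% therefore does not tell how often the test would find changes of that size. Samples pair by variety, as the labels give both times for each. The deviations of the paired libraries correlated at -0.242 for Bass, -0.276 for Harrington, 0.384 for Stirling and 0.178 for Baudin over 136 events.

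Genes were named by a rule: events in all 8 libraries, events of 3 or more varieties at only one time, the 3 deepest in each direction among those in 4 or more libraries, the genes with most events, and events in 4 or more libraries in genes with a group word. Other genes were named after their values were seen. Gene descriptions come from the study's supplementary lists. The members and lists were chosen with earlier results of these data known. Alternatives tried were other windows, a depth minimum of 10, other event definitions, leaving out each variety, no block and another prior. A depth band of 30 to 100, leaving out noref exons, neighbouring distances and recurrence classes were added after seeing the data. No genome sequence was used here.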

Additional observations from a re-analysis of the deposited data

Results flagged for a closer look

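The median distance between the acceptors of frame-keeping events in Stirling at 48 h was 9 nt, against 12 nt in the other 3 varieties at 48 h. It stood apart from the others by a gap as wide as the whole range. With 7 measures in 14 groups of 4 libraries examined, chance flags about 1 group in 20, and the distances come only in steps of 3 nt.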

How the results depend on the processing

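Of the comparisons, those of direction, recurrence, loss and depth with frame-shifting events kept the sign of their mean under every alternative run. So did the lower number of events at 48 h. Their sizes varied, with recurrence from 2.19 to 10.9 percentage points and loss from -6.14 to -3.001. Direction varied most with recurrence class. It ran from 1.24 ± 4.84 for events in 1 library only, positive in 2 of 4 varieties, to 33.6 for those in 4 or more. The 48 h minus 24 h difference in the share of all A3S events turned to -0.0107 percentage points with a window of 9 to 30 nt, and ran from -0.203 (without Baudin) to 1.45 when each variety was left out. The difference in the shortening share between the times ran from -1.51 to 1.16 (without Bass). The difference between A3S and A5S in the frame-keeping share turned to -1.54 with a window of 6 to 21 nt and to -5.60 at depths of 30 to 100, where the cause was not tested. Without the replicate block, limma called 1 of the 21 frame-keeping events in place of 0, and the number of events per library gave an exact permutation p of 0.0571 in place of 0.125. Over all 136 events limma then called 3, against 1 without Stirling, 1 with annotated depth taken over the full exon length, and 0 otherwise. The block changed no other call. Unscaled depths, 1 library per variety and time, and the missing junction reads limit every comparison of times.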
